A study of Mus musculus with 24 samples.

Results

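The 10 genes described here are 6 matrix metalloproteinase genes (Mmp2, Mmp3, Mmp9, Mmp13, Mmp14 and Mmp19) and the 4 genes of their tissue inhibitors (Timp1, Timp2, Timp3 and Timp4), picked by name out of 37991 gene identifiers in the deposited tables. All 10 passed the filter on low counts, which kept 20035 genes. RNA-seq was run on inguinal subcutaneous fat, the fat pad under the skin of the groin, from 24 female mice aged 26 weeks. The mice were NZO/HiLtJ (New Zealand Obese, an inbred strain prone to obesity and diabetes), CAST/EiJ and WSB/EiJ (inbred strains derived from wild mice) and C57BL/6J (the common reference strain), all obtained from The Jackson Laboratory. From 4 weeks of age each mouse ate either a diet rich in fat and sucrose (45% of energy as fat, 34% sucrose by weight), called high-fat below, or a standard diet with 17% of its energy from fat. This gives 8 groups of 3 mice, with no engineered allele and 1 library per mouse, and totals of 47651641 to 84009032 counts per library. The numbers 1 to 3 given to the mice of a group only name them. Levels are counts per 1000000 after scaling of the library totals (normalised CPM). A gene was called in a comparison when its p, adjusted over all 20035 genes, lay below 0.05.

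Matrix metalloproteinases are zinc-dependent enzymes that cut collagens and other proteins of the extracellular matrix. Most are secreted as inactive precursors, and some, such as the product of Mmp14, sit in the cell membrane. The tissue inhibitors bind the active enzymes and block them. In growing fat, these enzymes take part in remodelling the matrix around enlarging adipocytes and new vessels, and macrophages are among the cells known to make several of them.

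RefSeq promoter windows around the start site (build GRCm38.p6) were at hand for 7 of the 10 genes: Mmp3, Mmp13, Mmp14, Timp1, Timp2, Timp3 and Timp4. Those of Mmp3 and Mmp13 are printed because these genes, both on chromosome 9, had their highest levels in the same 3 libraries. They are also the only ones of the 7 with a match to TGANTCA, the letters of the classical site of the AP-1 family of transcription factors. The capitals mark that match, and the sequences run 5′ to 3′ on the plus strand, from chr9:7445572-7445871 for Mmp3 and chr9:7272264-7272563 for Mmp13.
Mmp3: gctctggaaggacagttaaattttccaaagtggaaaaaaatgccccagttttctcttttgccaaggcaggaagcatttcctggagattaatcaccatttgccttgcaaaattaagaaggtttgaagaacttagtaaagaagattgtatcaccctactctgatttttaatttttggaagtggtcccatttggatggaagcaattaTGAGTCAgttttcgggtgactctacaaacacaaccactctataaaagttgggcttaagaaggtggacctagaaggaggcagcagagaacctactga
Mmp13: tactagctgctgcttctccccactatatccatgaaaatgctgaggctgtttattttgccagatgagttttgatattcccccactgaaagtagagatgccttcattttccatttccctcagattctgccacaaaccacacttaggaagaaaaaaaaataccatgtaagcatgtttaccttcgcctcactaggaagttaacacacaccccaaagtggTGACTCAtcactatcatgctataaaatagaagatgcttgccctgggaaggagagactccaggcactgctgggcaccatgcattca
The match starts 46 bases before the start site in Mmp3 and 35 bases before it in Mmp13. Each of the 2 windows also holds 1 TATAAA, which does not overlap the TGANTCA match. Both strands were searched: 7.81% of 32851 promoters of this length hold TGANTCA, and 13.6% hold TATAAA. The windows of Mmp14 and of the 4 inhibitor genes hold neither run of letters. A match is a run of letters and says nothing of which factor was bound in these mice.

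The labelled tissue was checked against marker genes. The summed level of 8 adipocyte markers was 5200 CPM or more in 23 libraries and 58 CPM in CAST/EiJ high-fat mouse 1. That library also had 4.10 CPM of Adipoq, the gene of the adipocyte hormone adiponectin, against 599 CPM or more elsewhere, with 11700 CPM of smooth muscle markers and 869 CPM of epithelial markers. Its RNA goes against its label, so results that rest on it are given with and without it. Epcam, an epithelial gene, reached 5 CPM in 6 libraries: this one, all 3 of the WSB/EiJ high-fat group, WSB/EiJ standard mouse 3 and C57BL/6J high-fat mouse 1. Without these 6, WSB/EiJ had no high-fat library left, so it entered neither the average over strains nor the interaction. WSB/EiJ high-fat mouse 2 had 1820 CPM of brain markers, against 69.9 CPM or less elsewhere, and CAST/EiJ standard mouse 2 had 4700 CPM of skeletal muscle markers, against 106 CPM or less elsewhere. The summed level of 12 macrophage markers was 3330 to 4760 CPM in NZO/HiLtJ mice on the high-fat diet, against 946 to 1370 CPM in NZO/HiLtJ mice on the standard diet. In the other 6 groups it was 481 to 1350 CPM. In whole tissue, fewer cells of a type and less RNA per cell cannot be told apart.

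The diet comparison asked how the high-fat diet changed each gene within a strain, as high-fat minus standard. In NZO/HiLtJ, 1 of the 10 members was called, Mmp9, against 4.89% of all genes tested, while 7 had an unadjusted p below 0.05. The share of all genes with an unadjusted p below 0.05 is not given, here or below. Such counts therefore cannot be set against the shares of genes called. The high-fat libraries lay wholly above the standard ones for 6 members (Mmp2, Mmp3, Mmp13, Mmp14, Timp1 and Timp2) and wholly below them for 2 (Mmp9 and Timp4), where 46.5% of all genes did not overlap. Non-overlapping members numbered 1 in CAST/EiJ (Timp1, against 20.0% of all genes), 4 in WSB/EiJ (Mmp9, Mmp14, Mmp19 and Timp1, against 40.0%) and 1 in C57BL/6J (Timp3, against 10.8%). Without CAST/EiJ high-fat mouse 1, which enters every comparison through the shared estimate of spread, 7 of the 10 were called in NZO/HiLtJ, against 11.7% of all genes: Mmp2, Mmp3, Mmp14, Timp1 and Timp2 higher, Mmp9 and Timp4 lower. Without WSB/EiJ high-fat mouse 2, the members called in NZO/HiLtJ numbered 3 (Mmp2, Mmp3 and Mmp9), against 5.79% of all genes. Mmp3 was called in NZO/HiLtJ without WSB/EiJ high-fat mouse 1 too, at 1.56. In CAST/EiJ 1 member was called, Timp1, against 4.87% of all genes. In WSB/EiJ 2 were called, Timp1 higher and Mmp19 lower, against 21.5% of all genes. In C57BL/6J 0 were called by edgeR, 0 by DESeq2 and 0 by limma, and 0 had an unadjusted p below 0.05. Of all genes, 0.00998% were called there. Averaged over the 4 strains, 5 were called, against 28.9% of all genes: Timp1, Mmp13, Mmp14 and Mmp2 higher and Mmp9 lower.

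**Figure D1:**
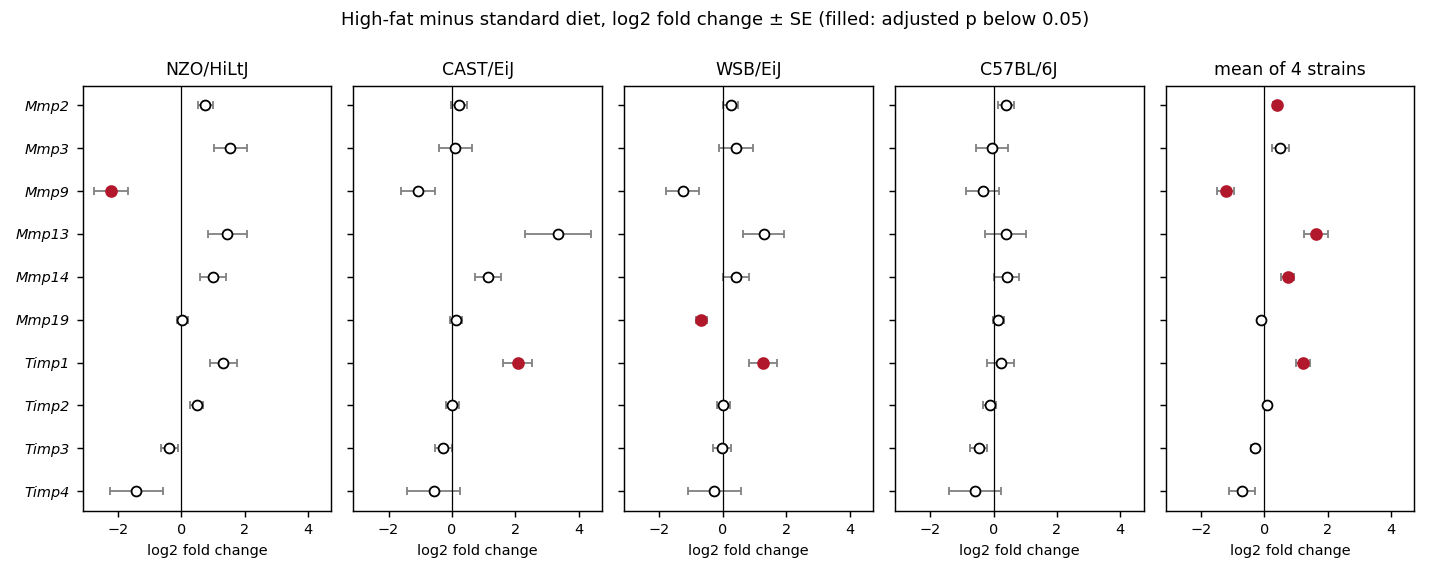
Log2 fold change of each member, high-fat minus standard diet, with its standard error, in each strain and averaged over the 4 strains. Filled points have an adjusted p below 0.05: Mmp9 in NZO/HiLtJ, Timp1 in CAST/EiJ, Timp1 and Mmp19 in WSB/EiJ, none in C57BL/6J and 5 genes on average. The point for Mmp13 in CAST/EiJ rests on 14 counts against 1 count and its place depends on the fit.

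Whether the diet difference itself differed between strains was tested with the strain by diet interaction, in which 0 of the 10 members were called, against 3.08% of all genes. Mmp19 was the 1 member with an unadjusted p below 0.05 (adjusted p = 0.12). DESeq2 called 1 member, Mmp19, and limma 0. Without CAST/EiJ high-fat mouse 1, Mmp9 and Mmp19 were called, against 17.6% of all genes, and without WSB/EiJ high-fat mouse 1 Mmp3 was called. A call in 1 strain and not in another is therefore not shown to be a difference between them. The diet effect of 1 strain was also set against that of another in 6 pairs, and edgeR called 0 members in each. The share of all genes called was 0.674%, 4.94% and 0.494% for NZO/HiLtJ set against CAST/EiJ, WSB/EiJ and C57BL/6J, 0.160% for CAST/EiJ against WSB/EiJ, 0.0599% for CAST/EiJ against C57BL/6J and 1.01% for WSB/EiJ against C57BL/6J. In these pairs 0 to 2 members had an unadjusted p below 0.05, limma called 0 in each, and DESeq2 called 1 in the pair of WSB/EiJ and C57BL/6J and 0 in the others.

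Between strains, 9 of the 10 members differed: all but Mmp14 were called for any strain difference with both diets weighted equally, against 68.2% of all genes. The number called was 7 for NZO/HiLtJ minus CAST/EiJ (51.1% of all genes), 5 for NZO/HiLtJ minus WSB/EiJ (45.6%) and 6 for NZO/HiLtJ minus C57BL/6J (23.4%). It was 5 for CAST/EiJ minus WSB/EiJ (35.5%), 7 for CAST/EiJ minus C57BL/6J (39.0%) and 3 for WSB/EiJ minus C57BL/6J (29.5%). Strain differences were also tested within single diets, in the same fit of all libraries. For NZO/HiLtJ minus CAST/EiJ 6 members were called in the high-fat groups (39.8% of all genes) and 7 in the standard groups (35.1%). For NZO/HiLtJ minus WSB/EiJ these counts were 5 (36.6%) and 4 (28.1%), and for NZO/HiLtJ minus C57BL/6J they were 4 (14.9%) and 1 (8.36%). For CAST/EiJ minus WSB/EiJ they were 3 (26.7%) and 5 (23.5%), for CAST/EiJ minus C57BL/6J 3 (25.9%) and 6 (28.0%), and for WSB/EiJ minus C57BL/6J 2 (17.9%) and 2 (22%). The pairs share libraries, so these counts are not independent.

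**Figure D2:**
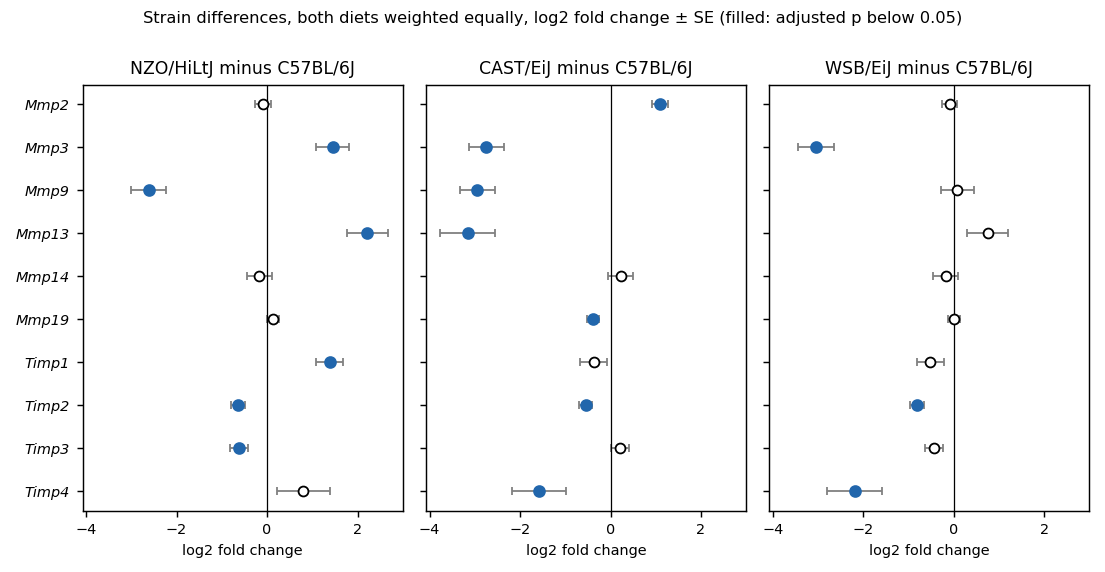
Log2 fold change of each member in NZO/HiLtJ, CAST/EiJ and WSB/EiJ against C57BL/6J, with both diets weighted equally and the standard error as bar. Filled points have an adjusted p below 0.05: 6 in NZO/HiLtJ, 7 in CAST/EiJ and 3 in WSB/EiJ.

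Mmp9 fell on the high-fat diet in NZO/HiLtJ mice, where it was the 1 member called. Mmp9 (chromosome 2) encodes gelatinase B, which cuts denatured collagen and basement membrane collagen and is made in quantity by neutrophils and some macrophages. In NZO/HiLtJ it stood at 1.61, 1.70 and 2.42 CPM on the high-fat diet, against 10.4, 6.75 and 9.40 CPM on the standard diet. The groups did not overlap, and Mmp9 fell with a log2 fold change of -2.21 ± 0.55 (SE, adjusted p = 0.0239). In WSB/EiJ it stood at 20.1, 11.1 and 20.3 CPM on the high-fat diet, against 32.1, 52.5 and 39.4 CPM on the standard diet. These groups did not overlap either, but the difference was not called (-1.27 ± 0.52, adjusted p = 0.087). In CAST/EiJ the levels were 5.199, 0.940 and 0.561 CPM on the high-fat diet, against 4.28, 5.23 and 4.76 CPM on the standard diet. Here the library with few adipocyte transcripts was the high one of its group, and without it the log2 fold change was -2.67, a call, where the value with it was -1.07 ± 0.53 (adjusted p = 0.187). In C57BL/6J the levels were 13.7, 28.5 and 25.02 CPM on the high-fat diet, against 30.5, 30.5 and 24.1 CPM on the standard diet, which overlapped (-0.34 ± 0.52, adjusted p = 1). Averaged over strains, Mmp9 fell by 1.22 ± 0.26 on the log2 scale (adjusted p = 0.00588). The call in NZO/HiLtJ was lost when any 1 of the 6 NZO/HiLtJ libraries was left out, with log2 fold changes of -2.41 to -2.07. That in WSB/EiJ was gained when CAST/EiJ high-fat mouse 1 or 3 was left out, at -1.27 in both.

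Between strains, with both diets weighted equally, NZO/HiLtJ had less Mmp9 than WSB/EiJ (log2 fold change -2.69 ± 0.39, adjusted p = 2.56e-05) and less than C57BL/6J (-2.61 ± 0.39, adjusted p = 8.31e-05). CAST/EiJ also had less of it than WSB/EiJ (-3.02 ± 0.40, adjusted p = 7.68e-06) and less than C57BL/6J (-2.94 ± 0.39, adjusted p = 9.39e-06). In each of these 4 pairs, none of the 6 libraries of the lower strain reached the lowest library of the other. The summed level of 10 neutrophil markers was 29.5 to 39.7 CPM in the NZO/HiLtJ high-fat group and 16.6 to 42.0 CPM in the NZO/HiLtJ standard group. In CAST/EiJ it was 1180 CPM in high-fat mouse 1, the library with the highest Mmp9 of its group, 29.0 and 17.6 CPM in the other 2 high-fat libraries and 12.8 to 19.2 CPM on the standard diet. It was 8.36 to 26.3 CPM in the WSB/EiJ groups and 7.71 to 16.2 CPM in the C57BL/6J groups. The part of neutrophils in the Mmp9 levels was not tested. Within the standard groups alone, the difference between NZO/HiLtJ and C57BL/6J was -1.68 and was not called. Without CAST/EiJ high-fat mouse 1, Mmp9 was also higher in NZO/HiLtJ than in CAST/EiJ (1.12, a call), where the value with it was 0.33 ± 0.37 (adjusted p = 0.483).

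**Figure D3:**
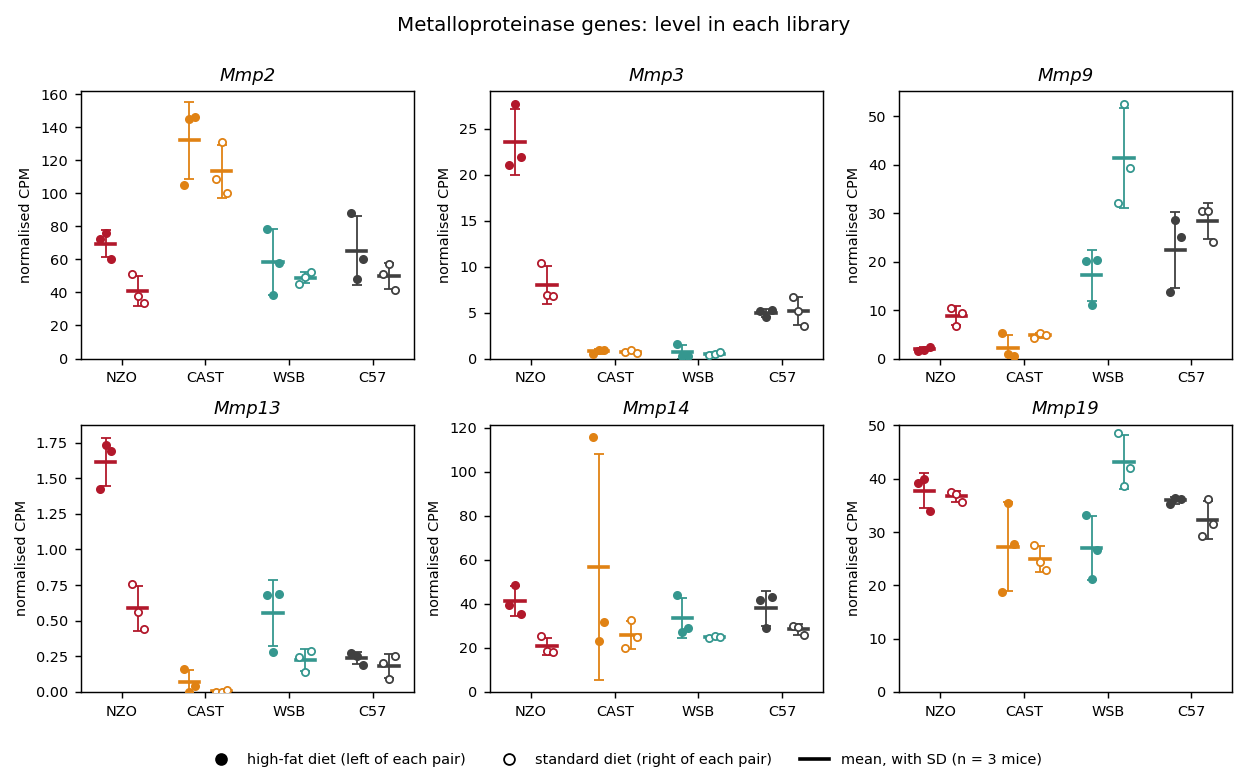
Level of the 6 metalloproteinase genes in each of the 24 libraries, in normalised CPM on a linear axis from 0, by strain (NZO, NZO/HiLtJ; CAST, CAST/EiJ; WSB, WSB/EiJ; C57, C57BL/6J), with the high-fat group left of the standard group. Points are mice and bars are the group mean with its SD (n = 3). Mmp3 and Mmp13 are highest in the 3 NZO/HiLtJ high-fat libraries, Mmp9 is low in NZO/HiLtJ and CAST/EiJ, and 1 CAST/EiJ high-fat library reaches 115.9 CPM of Mmp14.

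Mmp3 and Mmp13 were the members with the steepest strain order among the metalloproteinases. Mmp3 encodes stromelysin 1, which cuts many matrix proteins and can activate other metalloproteinases, and Mmp13 encodes collagenase 3, the main interstitial collagenase of rodents. Mmp3 stood at 21.02, 27.7 and 21.97 CPM in NZO/HiLtJ mice on the high-fat diet, against 10.4, 6.90 and 6.76 CPM in NZO/HiLtJ mice on the standard diet. All 6 of these libraries lay above the highest of the other 18, which had 6.66 CPM, and the high-fat libraries lay above the standard ones. C57BL/6J mice had 5.12, 4.51 and 5.23 CPM on the high-fat diet, against 6.66, 5.19 and 3.57 CPM on the standard diet. CAST/EiJ libraries ran from 0.458 to 0.949 CPM and WSB/EiJ libraries from 0.243 to 1.62 CPM. Mmp3 was higher in NZO/HiLtJ than in CAST/EiJ (log2 fold change 4.19 ± 0.41, adjusted p = 1.18e-07), WSB/EiJ (4.50 ± 0.41, adjusted p = 1.33e-07) and C57BL/6J (1.45 ± 0.36, adjusted p = 0.00699). It was lower in CAST/EiJ (-2.75 ± 0.39, adjusted p = 1.52e-05) and in WSB/EiJ (-3.05 ± 0.39, adjusted p = 1.3e-05) than in C57BL/6J. Within the standard groups alone, the difference between NZO/HiLtJ and C57BL/6J was 0.64 and was not called. Without WSB/EiJ high-fat mouse 1, the library with 1.62 CPM, Mmp3 was higher in CAST/EiJ than in WSB/EiJ (1.05, a call), where the value with it was 0.30 ± 0.37 (adjusted p = 0.57).

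The diet difference of Mmp3 in NZO/HiLtJ was 1.55 ± 0.51 on the log2 scale and was not called (adjusted p = 0.103), although the libraries did not overlap. In the other 3 strains the high-fat and standard libraries overlapped, with log2 fold changes of 0.11 ± 0.53 in CAST/EiJ, 0.42 ± 0.53 in WSB/EiJ and -0.05 ± 0.50 in C57BL/6J. The direction in WSB/EiJ rested on 1 library: without WSB/EiJ high-fat mouse 1 the value was -1.08, a call. Mmp13 was scarce everywhere: 1.42, 1.73 and 1.69 CPM in NZO/HiLtJ mice on the high-fat diet, against 0.755, 0.562 and 0.445 CPM in NZO/HiLtJ mice on the standard diet. Again the 3 high-fat libraries stood apart, at 104 to 129 counts, and again the difference was not called (1.46 ± 0.62, adjusted p = 0.244). WSB/EiJ mice had 0.682, 0.283 and 0.688 CPM on the high-fat diet, against 0.244, 0.138 and 0.289 CPM on the standard diet. C57BL/6J mice had 0.271, 0.256 and 0.188 CPM on the high-fat diet, against 0.202, 0.0922 and 0.253 CPM on the standard diet. In CAST/EiJ, Mmp13 gave 12, 0 and 2 counts on the high-fat diet, against 0, 0 and 1 counts on the standard diet, and the 12 counts came from the library with few adipocyte transcripts. No fold is given for counts this low. Averaged over strains, CAST/EiJ included, Mmp13 rose by 1.62 ± 0.38 on the log2 scale (adjusted p = 0.00835). Leaving out CAST/EiJ high-fat mouse 1 gave 1.18, still a call. Without the 6 libraries with Epcam it was 1.11 and not a call, but that average no longer includes WSB/EiJ. Between strains, NZO/HiLtJ had more Mmp13 than WSB/EiJ (1.46 ± 0.45, adjusted p = 0.0124) and more than C57BL/6J (2.21 ± 0.46, adjusted p = 0.00178). It was lower in CAST/EiJ than in every other strain, with adjusted p of 6.71e-07 against NZO/HiLtJ, 4.59e-05 against WSB/EiJ and 0.000405 against C57BL/6J. Within single diets, the difference between NZO/HiLtJ and WSB/EiJ was called in neither. That between NZO/HiLtJ and C57BL/6J was not called in the standard groups, nor that between CAST/EiJ and C57BL/6J in the high-fat groups. In NZO/HiLtJ, where neither Mmp3 nor Mmp13 was called for diet, 8 of the 12 macrophage markers rose on the high-fat diet, among them Cd68 and Adgre1, and 0 fell. Of all genes, 4.89% were called there. With CAST/EiJ high-fat mouse 1 left out, 10 of these markers were called higher and 1, Cd163, lower, against 11.7% of all genes. The part of macrophages in these levels was not tested.

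Mmp2 encodes gelatinase A, the counterpart of the Mmp9 product, and Mmp14 encodes the membrane enzyme that is known to activate it, with Timp2 as a partner. Mmp2 (chromosome 8) made up the largest share of the 6 metalloproteinase members per kilobase of exon in every group mean, from 33.8% ± 1.9 in the WSB/EiJ standard group to 71.8% ± 1.3 in the CAST/EiJ standard group (SD, n = 3). It was highest in CAST/EiJ, at 105, 145 and 146 CPM on the high-fat diet, against 109, 131 and 100.0 CPM on the standard diet. All 6 CAST/EiJ libraries lay above the highest of the other 18, which had 88.2 CPM. NZO/HiLtJ minus CAST/EiJ was -1.196 ± 0.174 on the log2 scale (adjusted p = 1.65e-05), CAST/EiJ minus WSB/EiJ was 1.19 ± 0.17 (adjusted p = 2.63e-05) and CAST/EiJ minus C57BL/6J was 1.10 ± 0.17 (adjusted p = 5.68e-05). The sums of the 9 fibroblast and progenitor markers were 629 to 1030 CPM in the 6 CAST/EiJ libraries, against 1150 to 1410 CPM in C57BL/6J. They overlapped those of NZO/HiLtJ (718 to 860 CPM) and WSB/EiJ (704 to 1150 CPM). The part of these or other cells in the Mmp2 level was not tested. Mmp2 stood at 72.6, 75.9 and 60.2 CPM in NZO/HiLtJ on the high-fat diet, against 51.3, 38.1 and 33.7 CPM on the standard diet (0.76 ± 0.24, adjusted p = 0.091, not called). In WSB/EiJ it stood at 78.5, 38.5 and 58.1 CPM on the high-fat diet, against 45.4, 49.1 and 52.5 CPM on the standard diet. In C57BL/6J it stood at 88.2, 47.9 and 59.99 CPM on the high-fat diet, against 51.1, 56.98 and 41.4 CPM on the standard diet. The groups overlapped in both strains, and in CAST/EiJ too. Averaged over strains Mmp2 rose by 0.41 ± 0.12 (adjusted p = 0.0226), which was lost without C57BL/6J high-fat mouse 1 (0.34).

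Mmp14 (chromosome 14), the membrane-type enzyme, was the 1 member with no strain difference called (adjusted p = 0.486). Averaged over strains it rose by 0.74 ± 0.20 on the log2 scale (adjusted p = 0.0151). Without the CAST/EiJ library with few adipocyte transcripts the value was 0.47, still a call. NZO/HiLtJ had 39.5, 48.7 and 35.5 CPM on the high-fat diet, against 25.3, 18.6 and 18.1 CPM on the standard diet. WSB/EiJ had 44.0, 27.3 and 29.2 CPM on the high-fat diet, against 24.6, 25.5 and 25.1 CPM on the standard diet. C57BL/6J had 42.0, 28.9 and 43.1 CPM on the high-fat diet, against 30.1, 29.7 and 25.8 CPM on the standard diet. The high-fat libraries were above the standard ones in NZO/HiLtJ and WSB/EiJ and overlapped them in C57BL/6J, and no single strain was called, with adjusted p of 0.21, 0.466 and 1 in that order of strains. CAST/EiJ had 115.9, 23.2 and 31.6 CPM on the high-fat diet, against 20.0, 32.5 and 25.1 CPM on the standard diet. Its log2 fold change was 1.14 ± 0.40 (adjusted p = 0.0863), and 0.07 without the high-fat mouse 1. It became a call without high-fat mouse 2 (1.5) or 3 (1.41).

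Mmp19 (chromosome 10), which cuts basement membrane proteins, fell on the high-fat diet in WSB/EiJ. There it stood at 33.2, 21.1 and 26.7 CPM on the high-fat diet, against 48.6, 38.6 and 42.1 CPM on the standard diet. The groups did not overlap, and the log2 fold change was -0.67 ± 0.18 (adjusted p = 0.0164). The call was lost without the high-fat mouse 2 (-0.54), the library with brain transcripts, and without the standard mouse 1 (-0.58). All 3 high-fat libraries of this strain also had epithelial marker sums of 218 to 862 CPM, against 52 CPM or less in the standard ones, and adipocyte marker sums of 5200 to 8030 CPM, against 13200 to 17200 CPM; their part in the fall of Mmp19 was not tested. In the other strains the diet groups overlapped, with log2 fold changes of 0.04 ± 0.18 in NZO/HiLtJ, 0.13 ± 0.18 in CAST/EiJ and 0.15 ± 0.18 in C57BL/6J. Between strains, Mmp19 was higher in NZO/HiLtJ than in CAST/EiJ (0.51 ± 0.13, adjusted p = 0.00259). CAST/EiJ had less of it than WSB/EiJ (-0.39 ± 0.13, adjusted p = 0.0235) and less than C57BL/6J (-0.38 ± 0.13, adjusted p = 0.0223). Within the high-fat groups alone the difference between CAST/EiJ and WSB/EiJ was 0.0133 and was not called. That between CAST/EiJ and C57BL/6J was called in neither diet alone. With both diets, the difference from WSB/EiJ was lost without CAST/EiJ standard mouse 3, WSB/EiJ standard mouse 1 or WSB/EiJ high-fat mouse 1 (-0.36 to -0.30). That from C57BL/6J was lost without C57BL/6J standard mouse 2 or CAST/EiJ standard mouse 3 (-0.36 to -0.33). The exons of Mmp19 overlap those of Tmem198b on the opposite strand, and the sources used here do not say whether counting used strand.

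Timp1 was the inhibitor gene that rose with the diet. It lies on chromosome X and encodes a secreted inhibitor that is known to be induced by inflammatory cytokines and in fibrosis. NZO/HiLtJ had the highest levels, 14.4, 14.6 and 9.61 CPM on the high-fat diet, against 6.12, 4.50 and 4.78 CPM on the standard diet. CAST/EiJ had 6.14, 4.95 and 3.64 CPM on the high-fat diet, against 0.870, 1.79 and 0.861 CPM on the standard diet. WSB/EiJ had 2.92, 4.68 and 2.54 CPM on the high-fat diet, against 0.698, 1.10 and 2.38 CPM on the standard diet. In all 3 of these strains every high-fat library was above every standard one. C57BL/6J had 3.18, 4.22 and 2.72 CPM on the high-fat diet, against 2.49, 4.48 and 1.66 CPM on the standard diet, which overlapped. Timp1 rose in CAST/EiJ by 2.07 ± 0.44 on the log2 scale (adjusted p = 0.0349). The rise was 1.27 ± 0.43 within WSB/EiJ (adjusted p = 0.0434) and 1.22 ± 0.22 averaged over strains (adjusted p = 0.00198). No call was made for NZO/HiLtJ, at 1.33 ± 0.43 (adjusted p = 0.0939), or for C57BL/6J, at 0.23 ± 0.42 (adjusted p = 1).

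The average call for Timp1 held with every single library left out, and the calls within strains did not. In CAST/EiJ the call was lost when 1 of 10 libraries was left out: CAST/EiJ high-fat mouse 1, any of the 3 of the CAST/EiJ standard group, NZO/HiLtJ high-fat mice 1 or 2, any of the 3 of the NZO/HiLtJ standard group, or C57BL/6J standard mouse 1. The log2 fold change then lay between 1.86 and 2.50, with 1.86 without the CAST/EiJ high-fat library. In WSB/EiJ it was also lost without 1 of 10 libraries: WSB/EiJ high-fat mice 1 or 2, WSB/EiJ standard mice 1 or 2, the same 5 NZO/HiLtJ libraries, or C57BL/6J standard mouse 1, with values of 0.95 to 1.37. Between strains, Timp1 was higher in NZO/HiLtJ than in CAST/EiJ (1.76 ± 0.31, adjusted p = 0.000119), WSB/EiJ (1.90 ± 0.31, adjusted p = 8.26e-05) and C57BL/6J (1.38 ± 0.30, adjusted p = 0.00279). Within the standard groups alone the difference from C57BL/6J was 0.83 and was not called. WSB/EiJ minus C57BL/6J was -0.52 ± 0.30 (adjusted p = 0.206), and became a call without WSB/EiJ standard mouse 3 (-0.84). Timp1 lies inside Syn1, on the opposite strand and with no shared exon. Syn1 was at 155.4 CPM in WSB/EiJ high-fat mouse 2, the one with brain transcripts and the highest Timp1 of its group, while no other library passed 2.42 CPM. Whether reads of Syn1 entered the counts of Timp1 was not tested.

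**Figure D4:**
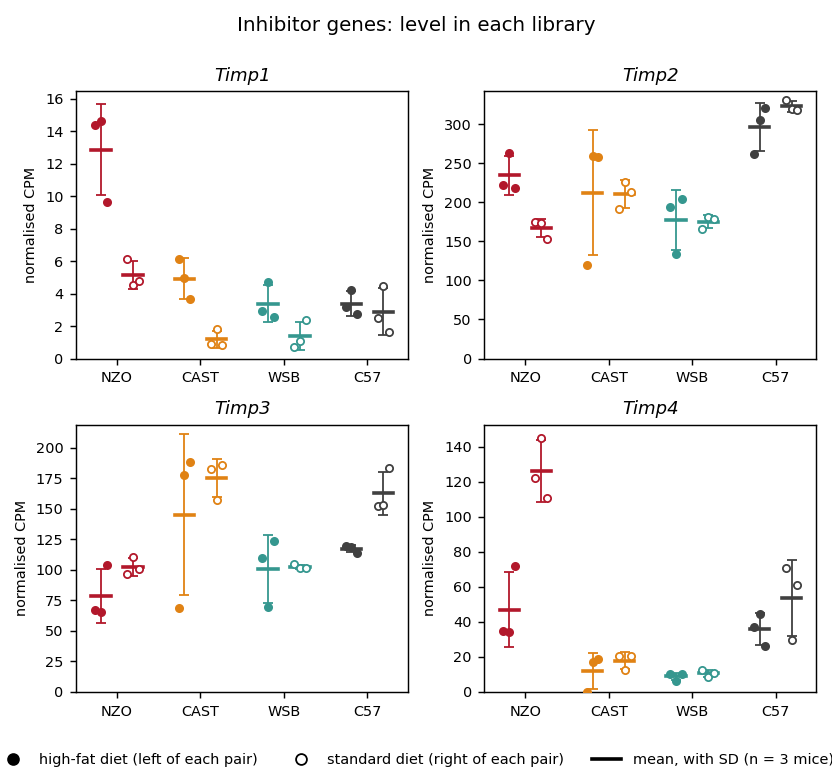
Level of the 4 inhibitor genes in each of the 24 libraries, in normalised CPM on a linear axis from 0, by strain (NZO, NZO/HiLtJ; CAST, CAST/EiJ; WSB, WSB/EiJ; C57, C57BL/6J), with the high-fat group left of the standard group. Points are mice and bars are the group mean with its SD (n = 3). Timp1 is highest in the NZO/HiLtJ high-fat group, Timp2 in the C57BL/6J groups and Timp4 in the NZO/HiLtJ standard group, where it averages 126.0 CPM.

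Timp4 was highest in NZO/HiLtJ mice on the standard diet. It lies on chromosome 6, encodes an inhibitor with restricted expression that is known from heart and fat, and is made by adipocytes. In NZO/HiLtJ it stood at 35.0, 34.3 and 71.8 CPM on the high-fat diet, against 122, 145 and 111 CPM on the standard diet. The groups did not overlap, but the difference of -1.42 ± 0.84 on the log2 scale was not called (adjusted p = 0.46). The same value was a call without CAST/EiJ high-fat mouse 1. In that CAST/EiJ library Timp4 had 3 counts (0.0404 CPM), against 17.3 and 18.8 CPM in the other 2 high-fat libraries. On the standard diet CAST/EiJ had 20.5, 12.5 and 20.8 CPM. The adipocyte markers were low in that high-fat library too, and Timp2 and Timp3 were the lowest of their group there. The part of adipocytes in its Timp4 level was not tested. C57BL/6J had 37.3, 44.7 and 26.5 CPM on the high-fat diet, against 71.0, 29.5 and 61.1 CPM on the standard diet, and WSB/EiJ had 6.41 to 10.1 CPM on the high-fat diet, against 8.52 to 12.5 CPM on the standard diet. In NZO/HiLtJ the 8 adipocyte markers summed to 9820 to 11700 CPM on the high-fat diet, against 15600 to 15800 CPM on the standard diet. The sums did not overlap, and 0 of the 8 markers were called, against 4.89% of all genes. Their part in the Timp4 level was not tested. Between strains, Timp4 was higher in NZO/HiLtJ than in CAST/EiJ (2.39 ± 0.61, adjusted p = 0.00328) and also than in WSB/EiJ (2.99 ± 0.63, adjusted p = 0.000888), without overlap. It was lower in WSB/EiJ (-2.19 ± 0.61, adjusted p = 0.0115) and in CAST/EiJ (-1.59 ± 0.60, adjusted p = 0.0422) than in C57BL/6J. Within single diets, neither of these differences from C57BL/6J was called in either diet. That between NZO/HiLtJ and CAST/EiJ was not called in the high-fat groups. The CAST/EiJ call was lost with any 1 of 15 libraries left out, at -1.65 to -1.46; they were the NZO/HiLtJ libraries other than the high-fat mouse 3, the 3 libraries each of the CAST/EiJ and WSB/EiJ standard groups, C57BL/6J high-fat mice 1 and 2, and C57BL/6J standard mice 1 and 3. With CAST/EiJ high-fat mouse 1 left out, Timp4 was also called higher in NZO/HiLtJ than in C57BL/6J (0.81, against 0.80 ± 0.59 and adjusted p = 0.36 with it) and higher in CAST/EiJ than in WSB/EiJ (0.89, against 0.60 ± 0.59 and adjusted p = 0.464). The exons of Timp4 overlap those of Syn2 on the opposite strand, and Syn2 reached 81.3 CPM in WSB/EiJ high-fat mouse 2 and 9.99 CPM or less elsewhere. Timp4 stood at 6.41 CPM in that library, the lowest of its group. Whether reads of Syn2 entered the counts of Timp4 was not tested.

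Timp2 (chromosome 11), whose product both inhibits metalloproteinases and helps the Mmp14 product to activate gelatinase A, was the inhibitor with the highest level in every group. Per kilobase of exon it made up 51.9% ± 1.3 of the 4 inhibitor genes in the NZO/HiLtJ standard group and 75.7% ± 3.2 in the C57BL/6J high-fat group (SD, n = 3), the ends of the range of group means. C57BL/6J had 262, 306 and 321 CPM on the high-fat diet, against 331, 320.0 and 318 CPM on the standard diet. NZO/HiLtJ had 223, 263.0 and 218 CPM on the high-fat diet, against 175, 173 and 153.5 CPM on the standard diet, without overlap (0.49 ± 0.21, adjusted p = 0.252, not called). CAST/EiJ had 120, 259 and 258 CPM on the high-fat diet, against 192, 227 and 213 CPM on the standard diet, and the low library was again that of mouse 1. WSB/EiJ had 134 to 204 CPM on the high-fat diet, against 166 to 181 CPM on the standard diet. Timp2 was lower in NZO/HiLtJ (-0.64 ± 0.15, adjusted p = 0.00406), CAST/EiJ (-0.55 ± 0.15, adjusted p = 0.00671) and WSB/EiJ (-0.81 ± 0.15, adjusted p = 0.000518) than in C57BL/6J. Within the high-fat groups alone it was -0.34 in NZO/HiLtJ and -0.48 in CAST/EiJ, and neither was called. Without CAST/EiJ high-fat mouse 1, Timp2 was called lower in NZO/HiLtJ than in CAST/EiJ (-0.24, against -0.09 ± 0.15) and higher in CAST/EiJ than in WSB/EiJ (0.40, against 0.26 ± 0.15).

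Timp3 (chromosome 10), whose product stays bound to the matrix and also inhibits some ADAM proteases, could not be read apart from its neighbour. The gene lies within Syn3, on the opposite strand, with overlapping exons. Of 11629 genes with a mean of 5 CPM or more, Syn3 was the one most like Timp3 over the 24 libraries, with a Pearson r of 0.992, and of 0.992 over the 18 libraries without Epcam. Syn3 stood at 23.7 to 66.7 CPM, while Syn1 and Syn2, which like Syn3 are neuronal genes, were at 2.42 CPM or less and 9.99 CPM or less outside the library with brain transcripts. The points share library and depth, and reads of the 2 genes may be divided between them, so the values of Timp3 are uncertain. Timp3 ran from 65.1 to 104.3 CPM in NZO/HiLtJ mice on the high-fat diet, against 96.4 to 110 CPM on the standard diet. In CAST/EiJ it ran from 69.1 to 188 CPM on the high-fat diet, the lowest being that of mouse 1, against 157 to 186 CPM on the standard diet. WSB/EiJ had 69.7 to 123 CPM on the high-fat diet, against 101.5 to 104.5 CPM on the standard diet. In C57BL/6J the high-fat libraries, at 114 to 120 CPM, lay below the standard ones, at 152 to 183 CPM, and the difference was not called (-0.47 ± 0.27, adjusted p = 1). No diet difference of Timp3 was called, on average either (-0.29 ± 0.14, adjusted p = 0.111). Between strains, NZO/HiLtJ had less Timp3 than CAST/EiJ (-0.83 ± 0.19, adjusted p = 0.0016) and less than C57BL/6J (-0.62 ± 0.19, adjusted p = 0.0254), and CAST/EiJ had more than WSB/EiJ (0.65 ± 0.19, adjusted p = 0.013). Within single diets, the difference between NZO/HiLtJ and C57BL/6J was called in neither. That between CAST/EiJ and WSB/EiJ was not called in the high-fat groups. The difference of NZO/HiLtJ from C57BL/6J was lost without C57BL/6J standard mouse 3, NZO/HiLtJ standard mice 1 or 3, or NZO/HiLtJ high-fat mice 1 or 2 (-0.61 to -0.56). Without CAST/EiJ high-fat mouse 1, Timp3 was also called higher in CAST/EiJ than in C57BL/6J (0.39, against 0.21 ± 0.19) and lower in WSB/EiJ than in C57BL/6J (-0.43, against -0.44 ± 0.19).

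**Figure D5:**
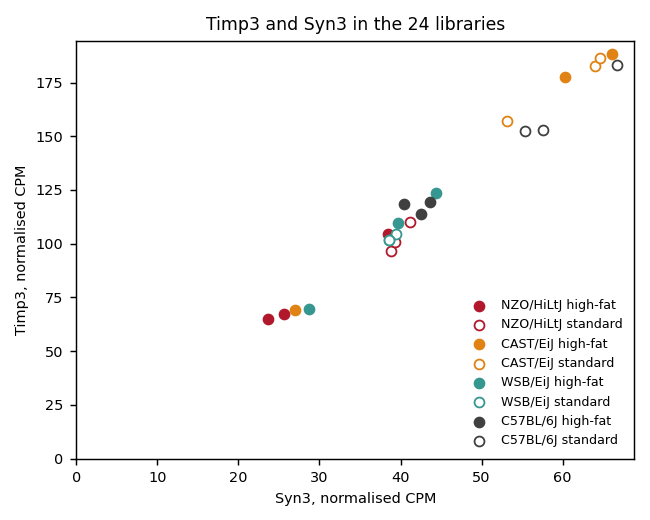
Timp3 against Syn3 in each of the 24 libraries, both in normalised CPM on linear axes from 0, coloured by strain, with filled points for the high-fat diet and open points for the standard diet. The points rise together from 23.7 to 66.7 CPM of Syn3 (Pearson r = 0.992 of the log2 levels).

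As a family, the 6 metalloproteinase members and the 4 inhibitors can be set against each other per kilobase of exon. The summed level of the metalloproteinases over that of the inhibitors was 0.568 ± 0.049 in the NZO/HiLtJ high-fat group and 0.402 ± 0.057 in the NZO/HiLtJ standard group (SD, n = 3), with no overlap between mice (0.512 to 0.598 against 0.352 to 0.464). In WSB/EiJ it was 0.567 ± 0.106 on the high-fat diet, against 0.706 ± 0.022 on the standard diet, with an overlap (0.496 to 0.689 against 0.687 to 0.730). In C57BL/6J it was 0.453 ± 0.083 on the high-fat diet and 0.345 ± 0.049 on the standard diet, with an overlap (0.380 to 0.544 against 0.296 to 0.393). In CAST/EiJ it was 0.813 ± 0.379 on the high-fat diet, against 0.586 ± 0.070 on the standard diet. The value was 1.25 in high-fat mouse 1, the library with few adipocyte transcripts, and 0.597 and 0.592 in the other 2 high-fat mice, whose mean was 0.594. The ratio is one of transcript levels, is given with no test and says nothing of enzyme activity. The values of Timp3, uncertain as given above, made up 10.5% to 27.0% of the inhibitor sum in the group means. The ratio covers the members only. Mmp12, described below, is not among them, and in NZO/HiLtJ mice on the high-fat diet its CPM lay above that of every member. The ratio and its order over the groups therefore do not stand for all metalloproteinases. Among the inhibitors of NZO/HiLtJ mice, Timp1 held 15.7% ± 3.5 of the summed level on the high-fat diet, against 7.01% ± 1.2 on the standard diet, and Timp4 held 8.67% ± 4.02, against 25.8% ± 2.0. Among the metalloproteinases of NZO/HiLtJ mice, Mmp3 held 24.9% ± 2.1 on the high-fat diet, against 13.3% ± 1.3 on the standard diet, and Mmp9 held 1.05% ± 0.35, against 7.56% ± 1.39. Over the 24 libraries, the members with the highest correlation to each other were Mmp3 and Mmp13 (r = 0.73), Mmp13 and Timp1 (r = 0.73) and Mmp3 and Timp1 (r = 0.72).

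By the same measure, the genes most like each member were Fcer1g for Mmp3 (r = 0.98), a signalling chain of immune receptors, with Cd200r1 next (0.97). Stap1 led for Mmp13 (0.95), Itgav, an integrin chain, for Mmp14 (0.88) and Rps19-ps7 for Mmp2 (0.88), with Colec12, a scavenger receptor gene, 2 places below it (0.87). Gzf1 led for Mmp9 (0.93), Lamtor5 for Mmp19 (0.87), Tagln2 for Timp1 (0.92), Plxdc2 for Timp2 (0.90) and Ccm2l for Timp4 (0.95). Over the 18 libraries without Epcam, Stap1 stayed at rank 1 for Mmp13. The leading genes then ranked 3 for Mmp3, 4 for Mmp9, 8 for Mmp14, 9 for Timp4 and 15 for Timp2. They ranked 26 for Mmp2, 48 for Timp1 and 50 for Mmp19, of 11629 genes compared. The libraries share depth and tissue make-up, and these values describe them only.

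The other genes of the pathway come from lists of related genes. Their counts of calls for diet stand beside 4.89% of all genes called in NZO/HiLtJ, 4.87% in CAST/EiJ, 21.5% in WSB/EiJ, 0.00998% in C57BL/6J and 28.9% on average. Of 17 other matrix metalloproteinase genes, 13 could be tested. Mmp12, which encodes macrophage elastase, rose on the high-fat diet in NZO/HiLtJ, at 515, 778 and 525 CPM, against 97.5, 55.6 and 83.0 CPM on the standard diet (2.95 ± 0.75 on the log2 scale, adjusted p = 0.0296). The call was lost when any 1 of the 6 NZO/HiLtJ libraries was left out, at 2.72 to 3.14. In the CAST/EiJ libraries Mmp12 did not pass 1.64 CPM, and NZO/HiLtJ minus CAST/EiJ was 7.69 ± 0.67 (adjusted p = 3.12e-08). Mmp17, a membrane-type enzyme, was called higher in CAST/EiJ (2.69 ± 0.64, adjusted p = 0.0381) and WSB/EiJ (2.02 ± 0.62, adjusted p = 0.0293), and Mmp25 in CAST/EiJ (3.46 ± 0.91, adjusted p = 0.0433). Both CAST/EiJ calls were lost without its high-fat mouse 1 (1.24 for Mmp17, 1.99 for Mmp25), and also with any 1 of 12 other libraries left out for Mmp17 and 16 others for Mmp25. That of Mmp17 in WSB/EiJ was lost without WSB/EiJ high-fat mouse 2 (1.12) or standard mice 1 or 2. In C57BL/6J edgeR, DESeq2 and limma each called 0 of the 13, with 2 at an unadjusted p below 0.05. On average over strains 3 were called, all higher: Mmp17, Mmp25 and Mmp11. When CAST/EiJ high-fat mouse 1 was left out, Mmp17 was called higher and Mmp24 lower, and the calls of Mmp25 and Mmp11 were lost. The median log2 fold change of the 13 was -0.02 in NZO/HiLtJ, beside -0.01 over all genes, and 0.68 on average over strains, beside 0.05.

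Of 17 activators and regulators of these enzymes, 6 were called in NZO/HiLtJ. Plaur (1.21 ± 0.23, adjusted p = 0.00527) and Plau (0.99 ± 0.23, adjusted p = 0.0158), the genes of the urokinase receptor and of urokinase, rose, as did Cd44 (1.27 ± 0.29, adjusted p = 0.0164), which encodes a hyaluronan receptor known to hold the Mmp9 product at the cell surface. Plau stood at 78.4, 87.6 and 74.5 CPM on the high-fat diet, against 48.3, 32.7 and 39.9 CPM on the standard diet. Plg, the plasminogen gene, Serpinf2, the gene of the plasmin inhibitor, and Pcsk6, which encodes a proprotein convertase, fell (-5.75, -5.14 and -0.98). Plg and Serpinf2 are made mainly in liver, and all 6 liver markers fell in NZO/HiLtJ too, with sums of 35.5, 21.5 and 11.9 CPM on the high-fat diet, against 769, 1370 and 134 CPM on the standard diet; their part was not tested. The call of Plaur was lost without NZO/HiLtJ high-fat mouse 2 (1.02), which also ended those of the other 5 (0.86 to 0.99 for Plau, 1.08 to 1.25 for Cd44, where standard mice 2 or 3 ended them as well). The calls of the 3 genes that fell were lost without NZO/HiLtJ high-fat mice 2 or 3 or the standard mouse 2. For Serpinf2 and Pcsk6 the high-fat mouse 1, and for Pcsk6 the standard mouse 3, ended them too.

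In the other strains, the activators called included A2m (higher) and Plg (lower) in CAST/EiJ and Thbs1, Cd44 and Thbs2 (all higher) in WSB/EiJ. Neither CAST/EiJ call was left without CAST/EiJ high-fat mouse 1, where 0.304% of all genes were called. Without WSB/EiJ high-fat mouse 2, Cd44 and Thbs1 were left in WSB/EiJ, against 7.58% of all genes. In C57BL/6J edgeR called 0, limma 0 and DESeq2 1, with 1 at an unadjusted p below 0.05. Cd44 was called on average over strains (0.81 ± 0.15, adjusted p = 0.00224) and stayed so with each library left out in turn. Reck, which encodes a membrane-anchored inhibitor of metalloproteinases, was low in NZO/HiLtJ, with 8.47 to 8.87 CPM in high-fat mice and 7.76 to 9.79 CPM in standard mice, while there were 12.7 CPM or more in every library of the other strains. It was lower there than in CAST/EiJ (-1.57 ± 0.12, adjusted p = 5.1e-09), WSB/EiJ (-0.90 ± 0.12, adjusted p = 9.62e-06) and C57BL/6J (-1.23 ± 0.12, adjusted p = 6.82e-07), and all 3 calls held with each library left out in turn.

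Of 18 ADAM and ADAMTS proteases, 3 rose in NZO/HiLtJ (Adam17, Adam8 and Adamts14), 5 in CAST/EiJ, 1 in WSB/EiJ (Adamts2) and 8 on average, and none fell. Adam8, the gene of a protease of myeloid cells, stood at 345, 434 and 299.9 CPM in NZO/HiLtJ mice on the high-fat diet, against 54.1, 36.5 and 45.8 CPM on the standard diet. It rose by 2.98 ± 0.48 there (adjusted p = 0.00131), and Adam17, whose product releases tumour necrosis factor and is inhibited by the Timp3 product, rose by 0.81 ± 0.11 (adjusted p = 0.000332). Both calls held with each library left out in turn, and that of Adamts14 was lost in 4 of the 24 (NZO/HiLtJ high-fat mice 1 or 2 and 2 or 3 of its standard group, 0.68 to 0.90). All 5 CAST/EiJ calls were lost without its high-fat mouse 1, where 0.304% of all genes were called. The WSB/EiJ call was lost without its high-fat mouse 2, where 7.58% of all genes were called. In C57BL/6J edgeR, DESeq2 and limma each called 0, with 1 at an unadjusted p below 0.05.

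Of 21 genes of matrix proteins that these enzymes cut, 7 rose in CAST/EiJ, 8 in WSB/EiJ and 10 on average. Fn1, the fibronectin gene, rose in WSB/EiJ (1.10 ± 0.25, adjusted p = 0.00879), as did the collagen genes Col1a1 (2.01 ± 0.48, adjusted p = 0.0104) and Col1a2 (1.74 ± 0.39, adjusted p = 0.00838). These 3 calls were lost without WSB/EiJ standard mouse 1 (0.97, 1.88 and 1.56). The smooth muscle, epithelial and adipocyte marker sums of WSB/EiJ also differed between the diets, as given above, and their part in these rises was not tested. Without WSB/EiJ high-fat mouse 2, the number called in WSB/EiJ was 5, against 7.58% of all genes. Without CAST/EiJ high-fat mouse 1 edgeR called 0 in CAST/EiJ, against 0.304% of all genes. Without the 6 libraries with Epcam, and so without WSB/EiJ in the average, 1 was called on average, Fn1, against 12.3% of all genes. In NZO/HiLtJ edgeR called 0 of the 21, DESeq2 1 and limma 1, with 4 at an unadjusted p below 0.05; in C57BL/6J all 3 tools called 0, with 1 at an unadjusted p below 0.05. Of 13 inducers of metalloproteinases and Timp1, 12 could be tested, and Ccn2 (1.02 ± 0.28, adjusted p = 0.0167), a matrix protein gene induced by transforming growth factor beta, was called on average with each library left out in turn. Lif and Spp1 were called on average too (1.17 and 2.17), but lost with any 1 of 8 and of 18 libraries left out, among them CAST/EiJ high-fat mouse 1 (0.69 and 0.19). Within strains, Lif and Il1a were called higher in CAST/EiJ, and Tgfb2 and Il11 in WSB/EiJ. In NZO/HiLtJ edgeR called 0 inducers, DESeq2 1 and limma 1, with 2 at an unadjusted p below 0.05, and in C57BL/6J all 3 tools called 0, with 0 at an unadjusted p below 0.05.

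The median log2 fold change in NZO/HiLtJ was 0.05 over the 17 activators and regulators, 0.29 over the 18 ADAM and ADAMTS genes, -0.07 over the 21 matrix protein genes and 0.46 over the 12 inducers, beside -0.01 over all genes tested. Averaged over strains these medians were 0.13, 0.34, 0.23 and 0.38 in the same order of lists, beside 0.05 over all genes.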

How the data were processed

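RNA-seq of inguinal fat was available for 24 mice, 1 library each. Per the submitters' processing notes, the tools named are CASAVA 1.8.0, Bowtie 0.12.8 and RSEM 1.2.1 and the builds NCBIM37 and mm9, with no roles given. The authors deposited expected counts per Ensembl gene, which were whole numbers as deposited, and a second table of normalised signal, which the authors made by dividing each count by the 75th percentile of that library's counts above 0 (checked within 0.0005). Whether counting used strand is not given in the sources used here. The named builds are of the C57BL/6J genome, and the effect of strain sequence differences on the counts was not tested. Libraries held 47651641 to 84009032 counts.

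The counts of all 24 libraries entered 1 edgeR fit (version 4.0.16, R 4.3.3) with 1 coefficient per group, TMM scaling, the filterByExpr filter by group (20035 genes kept, 17956 removed) and the quasi-likelihood F test, with 16 residual degrees of freedom and a biological coefficient of variation of 40.06%. All p-values were two-sided and adjusted by Benjamini-Hochberg over all genes tested. Alternatives were DESeq2 1.42.0, limma voom 3.58.1, other scalings, no filter, fits of single strains, and libraries left out. Comparisons within a single diet came from the fit of all 24 libraries and share its estimate of spread. Standard errors stand after ±, except where an SD is named. The labels name 1 mouse per library, and p-values measure the spread between these mice. The script was tested on simulated data. Levels per kilobase used merged exon lengths from GENCODE M21, and overlapping genes and chromosomes come from the same annotation.

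All members are named in every comparison, with up to 3 genes per direction of each other list by smallest adjusted p, and likeness is Pearson's r of log2(CPM + 1) over genes with a mean of 5 CPM or more. The members, gene lists and tests were chosen with earlier results of these data known. A result for 1 gene of the lists of related genes is not reported here.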

Additional observations from a re-analysis of the deposited data

How the results depend on the processing

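Of the counts of members called, those for the diet effect in C57BL/6J (0), any strain difference (9) and NZO/HiLtJ minus WSB/EiJ (5) were the same with each library left out in turn. The count for the diet effect in NZO/HiLtJ was 1 as reported, 5 with DESeq2, 4 with limma voom, 8 without the 6 libraries with Epcam and 8 from the NZO/HiLtJ libraries alone, against 8.21%, 5.22%, 20.8% and 32.7% of all genes. That in CAST/EiJ was 1 as reported, 3 with DESeq2 (14.9% of all genes), 2 without the Epcam libraries (2.56%) and 0 from its own libraries alone, where 0 of 17681 genes were called. That in WSB/EiJ was 2 as reported, 1 with no filter (13.2%) and 0 from its own libraries alone (8.15%). The interaction count of 0 became 1 with DESeq2 (14.0%) and 2 without the Epcam libraries (6.92%), where 3.08% of all genes were called as reported. Without those libraries the difference in diet effect was called for 3 members between NZO/HiLtJ and C57BL/6J (5.62%) and for 1 between CAST/EiJ and C57BL/6J (0.582%), and with DESeq2 for 1 between WSB/EiJ and C57BL/6J (7.64%). In single diets, 1 member was called for NZO/HiLtJ minus C57BL/6J in the standard groups, and in the high-fat groups 3 for CAST/EiJ minus WSB/EiJ and 3 for CAST/EiJ minus C57BL/6J. With 1 library left out, the counts ran from 0 to 7 for the diet effect in NZO/HiLtJ, from 0 to 3 in CAST/EiJ, from 0 to 3 in WSB/EiJ, from 4 to 6 on average and from 0 to 2 for the interaction. They ran from 7 to 9 for NZO/HiLtJ minus CAST/EiJ, 5 to 7 for NZO/HiLtJ minus C57BL/6J, 4 to 7 for CAST/EiJ minus WSB/EiJ, 5 to 8 for CAST/EiJ minus C57BL/6J and 3 to 4 for WSB/EiJ minus C57BL/6J. For differences in diet effect they ran from 0 to 2 for NZO/HiLtJ minus WSB/EiJ and from 0 to 1 for the 4 pairs of NZO/HiLtJ and C57BL/6J, CAST/EiJ and WSB/EiJ, CAST/EiJ and C57BL/6J, and WSB/EiJ and C57BL/6J. The cause of these shifts was not tested.

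Of the differences that changed sign, 1 was called as reported, Mmp19 for CAST/EiJ minus WSB/EiJ. With limma voom these were Mmp3 (-0.0061) and Timp2 (-0.0475) for diet in CAST/EiJ, Mmp3 (-0.1496) and Timp2 (-0.0077) for diet in WSB/EiJ, and Timp4 (-0.7825) for CAST/EiJ minus WSB/EiJ. Without the Epcam libraries they were Timp3 (0.0611) and Timp4 (0.0101) for diet in CAST/EiJ. Mmp19 (0.1801) also changed sign on average there, where WSB/EiJ, left with no high-fat library, no longer entered the average. From the WSB/EiJ libraries alone it was Timp3 for diet (0.0168). In the high-fat groups alone they were Mmp9 (-0.2429) and Timp2 (0.1432) for NZO/HiLtJ minus CAST/EiJ, Mmp19 (0.0133) for CAST/EiJ minus WSB/EiJ, Timp1 for CAST/EiJ minus C57BL/6J (0.5425) and Timp1 for WSB/EiJ minus C57BL/6J (0.0020). In the standard groups alone it was Mmp19 for NZO/HiLtJ minus WSB/EiJ (-0.2306). With 1 library left out, the diet effect ran from -0.0039 to 0.1159 for Mmp19 in NZO/HiLtJ. In CAST/EiJ it ran from -0.0722 to 0.3749 for Mmp3, -0.1177 to 0.3269 for Mmp19, -0.1654 to 0.2874 for Timp2, -0.5192 to 0.0521 for Timp3 and -1.0654 to 0.0011 for Timp4. In WSB/EiJ it ran from -0.018 to 0.4635 for Mmp2, -1.0799 (a call, without WSB/EiJ high-fat mouse 1) to 0.8166 for Mmp3, -0.1092 to 0.1673 for Timp2 and -0.2057 to 0.1666 for Timp3. In C57BL/6J it ran from -0.258 to 0.1752 for Mmp3 and -0.0475 to 0.697 for Timp1. The cause was not tested. No paired analysis was possible because the labels carry no replicate numbers that groups share.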
